A study of Mus musculus with 6 samples.

Results

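The genes described here are the small heat shock proteins of skeletal muscle, Hspb1, Hspb2, Hspb3, Hspb6, Hspb7, Hspb8 and Cryab, together with Bag3, the cochaperone that works with Hspb8. They were found by their platform gene symbol. All 8 genes were on the array, with 15 probe sets among the 45037 probe sets tested, and every one of the 15 is described. Each probe set is a collection of short oligonucleotides that together read a transcript. Transcript levels were measured in muscle from 3 mice labelled SIRT6 knockout (KO) and 3 labelled wild type (WT), with 1 Affymetrix Mouse Genome 430 2.0 array for each mouse. SIRT6 is a chromatin-bound, NAD-dependent deacylase. All 6 mice had the 129SvJ background, and the labels name the tissue as muscle only. The age of the mice, the muscle taken and the design of the deletion are not stated in the sources used here.

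Small heat shock proteins are chaperones that need no ATP. They share a conserved alpha-crystallin domain, assemble into oligomers, and hold unfolding proteins until the HSP70 machinery refolds them or passes them to degradation. Muscle makes more members of the family than most tissues, and several of them sit at the Z-disc and along desmin and actin filaments, which carry mechanical load. HSPB8 and BAG3 join HSP70 and the ubiquitin ligase CHIP in chaperone-assisted selective autophagy, which removes damaged filamin C from the Z-disc.

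The arrays differed in ways that bear on these genes. The median intensity lay between 11 and 13.5 in the KO arrays and between 10.8 and 15 in the WT arrays. Hybridization controls, transcripts added in fixed amounts, read 1.93 times the WT replicate 2 level in WT replicate 1, against 0.968 to 1 in the other 4 arrays. The 3' to 5' ratio of Gapdh probe sets, a sign of RNA quality, was 0.811 to 0.846 in the KO arrays and 0.827 to 0.835 in the WT arrays. Sirt6 read 22.6, 18.3 and 13.7 in the KO arrays and 23.2, 15.1 and 21.3 in the WT arrays, so its probe set does not check the labels. Xist, the RNA of the inactive X chromosome, read 221.7 to 250.9 at probe set 1427262_at in the KO arrays and 0.7 to 3.4 in the WT arrays. Eif2s3y, a Y-linked gene, read 1.1 to 4.1 at probe set 1417210_at in the KO arrays and 44.5 to 77.1 in the WT arrays. By these 2 genes the KO arrays read as female and the WT arrays as male. For every gene below, genotype and this difference of sex cannot be told apart. Summed adipocyte markers read 4082.4 to 6605.4 in the KO arrays and 5660.2 to 12061.3 in the WT arrays, and brown adipocyte markers 3095.6 to 3674 in the KO arrays and 3716.6 to 6208.8 in the WT arrays. Here and below, a gene that is higher or lower on average is so by its mean log2(intensity + 16), which for genes with little change can differ from the order of the mean intensities. By that measure 6 of 6 adipocyte and 5 of 5 brown adipocyte markers were lower, although Cidec averaged 75.4 in KO and 73.7 in WT and Elovl3 13.2 in KO and 13.0 in WT. In 3 of the 6 adipocyte and 2 of the 5 brown adipocyte markers the KO arrays lay wholly below the WT arrays, against 8.34% of all genes. Most of the adipocyte sum was Fabp4 and Car3, and most of the brown adipocyte sum was Cox8b, whose groups overlapped. Whether these genes read fat cells in whole muscle was not tested. Ucp1, the uncoupling protein that defines brown fat, read 129.9, 5.9 and 2.3 in the KO arrays and 877.2, 570.3 and 586.1 in the WT arrays, and in limma's test limited to brighter probe sets, described below, Ucp1 and Cidea fell (adjusted p = 0.00237 and 0.0162). Both calls were lost without WT replicate 1 (0.198 and 0.205) or WT replicate 3 (0.0628 and 0.073) and with an offset of 1 (0.15 and 0.166) or 64 (0.163 and 0.248), that of Ucp1 also with quantile normalization (0.0594) or a trended and robust variance (0.21), and that of Cidea also without KO replicate 2 (0.164). Their part in the results was not tested. The muscle label was borne out by Acta1, skeletal actin, which read 9375.7 to 9876.4 in the KO arrays and 9554.3 to 15079.8 in the WT arrays.

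The family split by gene. Hspb6, Cryab, Hspb3, Hspb2 and Hspb8 were lower on average in KO muscle at their brightest probe sets, and in each of these 5 genes all 3 KO arrays read below all 3 WT arrays. Hspb7, Bag3 and Hspb1 were higher on average, and their groups overlapped. No member probe set passed limma's test over all probe sets at an adjusted p of 0.05. Their adjusted p-values ran from 0.499 to 0.976, and 0.00888% of all probe sets were called. At an unadjusted p under 0.05 there were 5 member probe sets, all lower in KO, against 4.99% of all probe sets that were lower and 3.57% that were higher at that level. In 7 of the 15 member probe sets, or 46.7%, the KO arrays lay wholly below the WT arrays, against 7.29% of all probe sets. None lay wholly above, against 5.02%. The 7 include more than 1 probe set each of Cryab and Hspb8. At 1 probe set a gene, 5 of the 8 genes lay wholly below, against 8.34% of all genes. The members were chosen with earlier results of these data known, so these shares describe the members and do not test the family. With the arrays scaled to their hybridization controls, 3 member probe sets lay below and 1 above, against 2.8% and 12.1% of all probe sets. The probe sets of Hspb2, Hspb3 and Hspb8 were then no longer apart. With a smaller test limited to the 22518 probe sets whose mean log2 value was above the median, which 14 of the 15 passed, Hspb6 alone was called (adjusted p = 0.04), where 0.266% of probe sets were called lower and 0.0844% higher. That test was sensitive to single arrays. It called 7 member probe sets without KO replicate 1, of Hspb3, Hspb6, Hspb7 and Cryab, where it called 6% of all probe sets, and 0 without KO replicate 2, WT replicate 1 or WT replicate 3. In whole muscle, fewer cells of a type and less RNA per cell cannot be told apart, and this holds for each level given here.

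**Figure D1:**
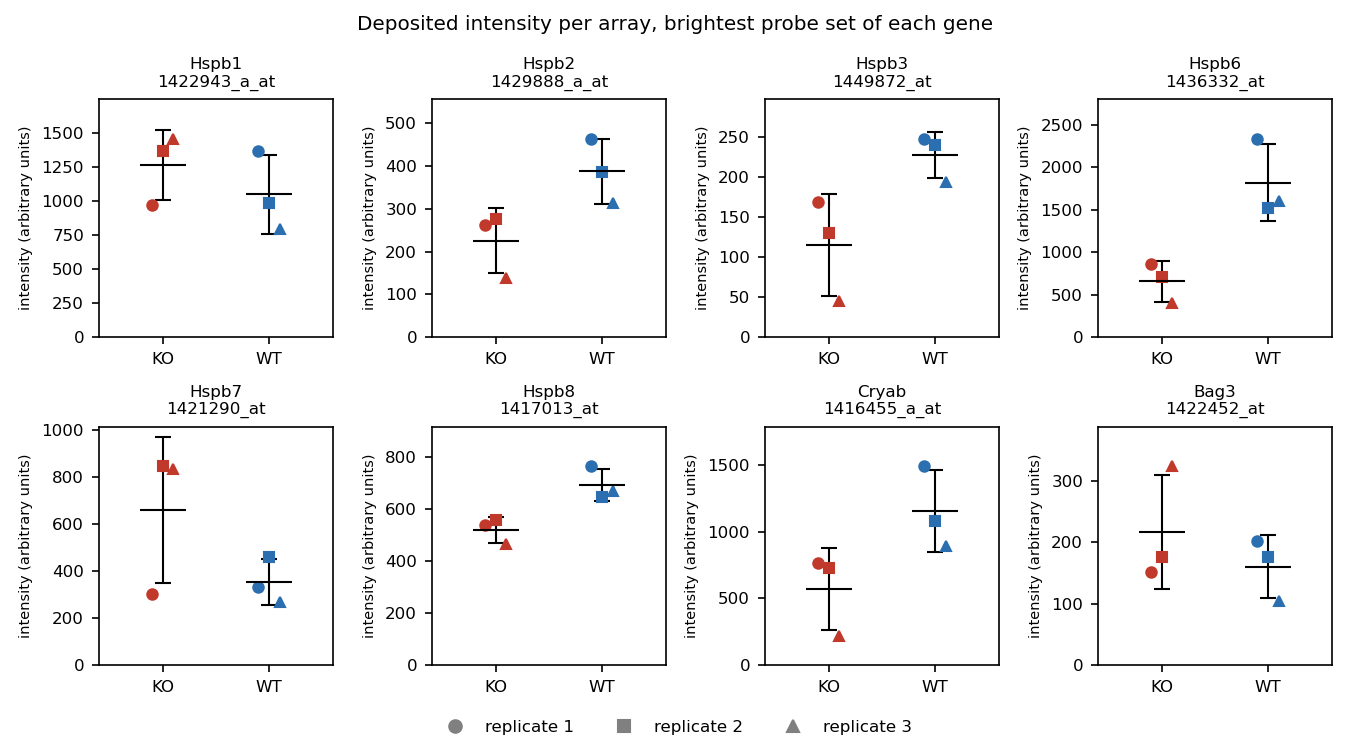
Deposited intensity (vertical axis, arbitrary units) of the brightest probe set of each gene in the 3 KO arrays and the 3 WT arrays; each marker is 1 mouse, and the bar and whiskers are the mean and SD. Hspb6, Cryab, Hspb3, Hspb2 and Hspb8 have every KO marker below every WT marker, while Hspb7 has KO replicates 2 and 3 above the WT markers and KO replicate 1 among them.

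The stretch before the transcription start is shown for 4 members that differ in direction, because heat shock genes are controlled there by heat shock factor 1, which binds repeated GAA units in alternating orientation, the heat shock element. Of the 8 members, 6 had an entry in the RefSeq promoter table, build GRCm38.p6, with 7 start sites. Hspb2 and Cryab had none. The 250 bases before each start were searched for the paired units GAANNTTC and TTCNNGAA, the triple unit GAANNTTCNNGAA, and the TATA box TATAAA. Both strands were read, and a triple unit contains both kinds of pair. Capitals mark matches to these letters. Hspb1 is read on the plus strand at chr5:135887669-135887918, Hspb6 at its second listed start on the plus strand at chr7:30553051-30553300, Hspb3 on the minus strand at chr13:113663677-113663926 and Hspb7 on the plus strand at chr4:141420529-141420778.
Hspb1: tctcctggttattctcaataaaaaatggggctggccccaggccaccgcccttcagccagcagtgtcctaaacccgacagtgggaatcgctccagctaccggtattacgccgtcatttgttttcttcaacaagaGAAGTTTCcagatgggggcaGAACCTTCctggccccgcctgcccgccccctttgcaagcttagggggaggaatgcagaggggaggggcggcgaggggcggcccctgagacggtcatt
Hspb6: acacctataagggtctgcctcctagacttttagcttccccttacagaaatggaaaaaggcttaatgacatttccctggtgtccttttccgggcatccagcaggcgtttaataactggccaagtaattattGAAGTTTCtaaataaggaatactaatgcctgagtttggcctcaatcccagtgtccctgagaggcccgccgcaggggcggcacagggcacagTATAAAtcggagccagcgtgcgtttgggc
Hspb3: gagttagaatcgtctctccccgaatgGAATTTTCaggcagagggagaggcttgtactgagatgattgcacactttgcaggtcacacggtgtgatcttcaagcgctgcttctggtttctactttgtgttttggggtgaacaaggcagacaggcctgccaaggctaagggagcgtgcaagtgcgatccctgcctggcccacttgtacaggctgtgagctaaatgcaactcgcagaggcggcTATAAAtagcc
Hspb7: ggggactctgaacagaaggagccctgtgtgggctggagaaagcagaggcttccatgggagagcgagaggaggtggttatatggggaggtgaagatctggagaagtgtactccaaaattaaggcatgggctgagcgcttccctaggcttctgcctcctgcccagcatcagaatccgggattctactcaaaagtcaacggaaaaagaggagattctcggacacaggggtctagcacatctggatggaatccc
Hspb1 held GAANNTTC at 2 places, from base -117 to -110 and from -97 to -90, counted back from the start. Hspb6 held it from -120 to -113 and Hspb3 from -224 to -217. Hspb6 and Hspb3 also held TATAAA, from -29 to -24 and from -11 to -6. The Hspb7 window held none of these letters, nor did those of Hspb8 and Bag3 or the first listed start of Hspb6. Over all 32851 windows of this length, 6.69% held GAANNTTC, 7.17% held TTCNNGAA, 0.47% held the triple unit and 12.37% held TATAAA. GAANNTTC thus stood before Hspb6 and Hspb3, lower on average in KO muscle, and before Hspb1, higher on average with overlapping groups. Whether the letters go with direction was not tested, and Hspb2 and Cryab had no window.

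Hspb6 encodes HSP20, which cyclic nucleotide-dependent kinases phosphorylate and which relaxes smooth muscle as well as protecting striated muscle. Its probe set 1436332_at read 866.2, 711.4 and 396.9 in the KO arrays and 2335.6, 1518.7 and 1600.5 in the WT arrays. The highest KO array stood well under the lowest WT array, and KO replicate 3 was the lowest of all. The means were 658 ± 239 in KO and 1818 ± 449.9 in WT (SD, n = 3 each). The log2 fold change, on the log2(intensity + 16) scale used for every fold here, was -1.49 with a 95% interval of -2.23 to -0.74, which is 2.80 times higher in WT (adjusted p = 0.499 over all probe sets). With the arrays scaled to their hybridization controls the log2 fold change was -1.16. An exact permutation test of the 6 arrays gave p = 0.1, the smallest that 3 against 3 allows. In the test limited to brighter probe sets Hspb6 fell, and that call was lost without KO replicate 2 (adjusted p = 0.174), WT replicate 1 (0.411) or WT replicate 3 (0.215), with quantile normalization (0.0917), median centring (0.0801) or an offset of 1 (0.268) or 64 (0.284).

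Some smooth muscle and most connective tissue markers were lower on average beside Hspb6. Acta2, smooth muscle actin, was among the 3 genes whose array profile was most like that of Hspb6, and it read 340.2, 255.1 and 105.4 in the KO arrays and 802, 585 and 539.2 in the WT arrays. The other genes of most like profile were Serpinh1, the collagen chaperone HSP47, and Pcolce, an enhancer of procollagen processing. Likeness here is the root-mean-square difference between log2 profiles over the 6 arrays, each centred on its own mean, and was 0.11 for Serpinh1, 0.14 for Pcolce and 0.15 for Acta2 among 3042 candidate genes. The summed intensity of the 7 smooth muscle markers was 339.2 to 623.3 in the KO arrays and 843.5 to 1221.5 in the WT arrays. Acta2 and Smtn, the 2 whose groups did not overlap, made up most of that sum. The other 5 summed to 133, 160 and 136.7 in the KO arrays and 167.5, 155.2 and 100.3 in the WT arrays, which overlapped. Among them Cnn1 and Lmod1 were lower on average, Tagln and Mylk were higher, and Myh11, the defining smooth muscle myosin, averaged 24.1 in KO and 23.2 in WT (n = 3 each) with a log2 fold change of -0.003. The summed intensity of the 8 fibroblast and matrix markers was 3778 to 7961.6 in the KO arrays and 7751.5 to 13579.7 in the WT arrays, which overlapped, with 7 of the 8 lower on average. Their part in the Hspb6 result was not tested.

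Cryab encodes alpha B-crystallin, which guards desmin filaments, and mutations in the human gene cause a desmin-related myopathy. Probe set 1416455_a_at read 763.6, 730.6 and 214.5 in the KO arrays and 1492.1, 1081.5 and 891.4 in the WT arrays. KO replicate 3 stood far below the other 5 arrays, and the groups did not overlap. The log2 fold change was -1.16 with an interval of -2.31 to -0.01 (adjusted p = 0.583, n = 3 each). Without KO replicate 3 it was -0.59, and without KO replicate 1 it was -1.47. With the arrays scaled to their hybridization controls it was -0.84. A further bright probe set, 1434369_a_at, read 345.3, 299.9 and 85.4 in the KO arrays and 675.6, 468.3 and 368.5 in the WT arrays, with the same order of arrays and a log2 fold change of -1.16, which was -0.58 without KO replicate 3. The remaining Cryab probe set, 1435837_at, read 9.5 to 12.5 in the KO arrays and 5.3 to 11.5 in the WT arrays, below the offset of 16, and its log2 fold change was 0.19.

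Hspb2 lies beside Cryab on chromosome 9. In the RefSeq gene table, build GRCm38.p6, Hspb2 spans chr9:50751072-50752354 and Cryab chr9:50745951-50756636, so that all 1283 bases of Hspb2 fall inside the widest annotated Cryab interval. Whether probes of either gene also read transcripts of the other was not tested. HSPB2 was first described as a protein that binds the myotonic dystrophy kinase. Its only probe set, 1429888_a_at, read 263.5, 275.5 and 138 in the KO arrays and 464.4, 386.6 and 312.7 in the WT arrays. As with Cryab, the groups did not overlap and KO replicate 3 was the lowest array. The log2 fold change was -0.78 with an interval of -1.45 to -0.11 (adjusted p = 0.563, n = 3 each). It was -0.48 without KO replicate 3 and -0.47 with the arrays scaled to their hybridization controls. The log2 ratio of Cryab to Hspb2, set to the WT mean, was -0.03, -0.15 and -0.92 in the KO arrays and 0.12, -0.08 and -0.05 in the WT arrays. In KO replicate 3 the ratio was therefore lower than in any other array.

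Hspb3 encodes a muscle-specific family member that forms defined hetero-oligomers with HSPB2. Probe set 1449872_at read 169, 130.4 and 45.5 in the KO arrays and 247.8, 239.5 and 194 in the WT arrays. The WT arrays were close together, and the KO arrays were spread over a wider range below them. The log2 fold change was -1.03 with an interval of -1.97 to -0.09 (adjusted p = 0.566, n = 3 each), and it was -0.56 without KO replicate 3. With the arrays scaled to their hybridization controls it was -0.73. Among the 28 pairs of members, Hspb3 and Cryab had the most like profiles, with a root-mean-square difference of 0.20. Outside the family, the profile closest to Hspb3 was that of Bpgm, bisphosphoglycerate mutase, at 0.08. Jph2, which ties the T-tubule to the sarcoplasmic reticulum, followed at 0.08 and read 904.3, 673 and 278.2 in the KO arrays and 1197.1, 1069.4 and 1042.4 in the WT arrays.

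Hspb7, unlike these genes, was higher on average, with overlapping groups. It encodes the cardiovascular heat shock protein, which binds filamin C and is abundant in heart and skeletal muscle. Probe set 1421290_at read 302.2, 843.6 and 830.9 in the KO arrays and 329.6, 458.9 and 268.7 in the WT arrays. KO replicates 2 and 3 were above every WT array, and KO replicate 1 lay among the WT arrays. The log2 fold change was 0.77 with an interval of -0.22 to 1.76 (adjusted p = 0.653, n = 3 each). With each KO array left out in turn it was 1.24 (replicate 1), 0.53 (replicate 2) and 0.54 (replicate 3). Probe set 1421289_at read 115.8, 292 and 302.9 in the KO arrays and 114.2, 164.9 and 96.1 in the WT arrays, and 1434927_at read 56.3, 167.6 and 182.5 in the KO arrays and 107.7, 97.4 and 50.6 in the WT arrays. Probe set 1421289_at had a log2 fold change of 0.77, or 1.18 without KO replicate 1. That of 1434927_at was 0.50, and it was 0.97, 0.29 and 0.24 without KO replicate 1, 2 or 3, 0.22 without WT replicate 3 and 0.78 with hybridization control scaling. All 3 Hspb7 probe sets thus had the same pair of KO arrays on top.

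A ratio taken within an array does not depend on the array's brightness, and the following was chosen after the values were seen. The log2 ratio of Hspb7 to Hspb6, set to the WT mean, was 0.86, 2.62 and 3.44 in the KO arrays and -0.45, 0.65 and -0.20 in the WT arrays. Every KO array had more Hspb7 for its Hspb6 than any WT array, for a divisor already known to be lower in every KO array. In KO replicate 1 the ratio came from Hspb6, at a log2 distance of -1.03 from the WT mean, with Hspb7 at -0.18. Hspb7 and Hspb6 had the least like profiles of the 28 pairs, with a root-mean-square difference of 1.39. The ratio of Hspb1 to Cryab was 0.49, 1.04 and 2.91 in the KO arrays and between -0.02 and 0.01 in the WT arrays. The WT arrays thus held Hspb1 and Cryab in nearly the same proportion, and the KO arrays differed from them and from each other.

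Genes of muscle wasting and of slow fibres varied among the same KO arrays. Of 8 measured atrophy ligases, all 8 were higher on average and 0 passed. Their median log2 fold change was 0.92, against -0.02 over 18193 genes, and the lowest of the 8 was 0.04. In 3 of the 8 the KO arrays lay wholly above the WT arrays, against 4.51% of all genes. Fbxo32, the ubiquitin ligase atrogin-1, read 143.7, 1296.6 and 4078.5 in the KO arrays and 135.7, 75.9 and 55.5 in the WT arrays. The summed intensity of the list was 1083.9, 4000.6 and 12636.7 in KO replicates 1, 2 and 3 and 672.7 to 1049.3 in the WT arrays, so KO replicate 1 stood next to the WT arrays here as it did for Hspb7. Slow fibre markers were highest in KO replicate 2, with 10 of 11 higher on average and 0 passing. In 3 of the 11 the KO arrays lay wholly above the WT arrays. The summed intensity of the slow fibre list was 3289.2, 8895.9 and 2460.9 in KO replicates 1, 2 and 3 and 1213.7 to 2984.4 in the WT arrays. Myh7, the myosin of slow fibres, read 420.4, 1859.9 and 281.1 in the KO arrays and 167.7, 313 and 87.2 in the WT arrays. The part of these genes in the family's values was not tested.

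**Figure D2:**
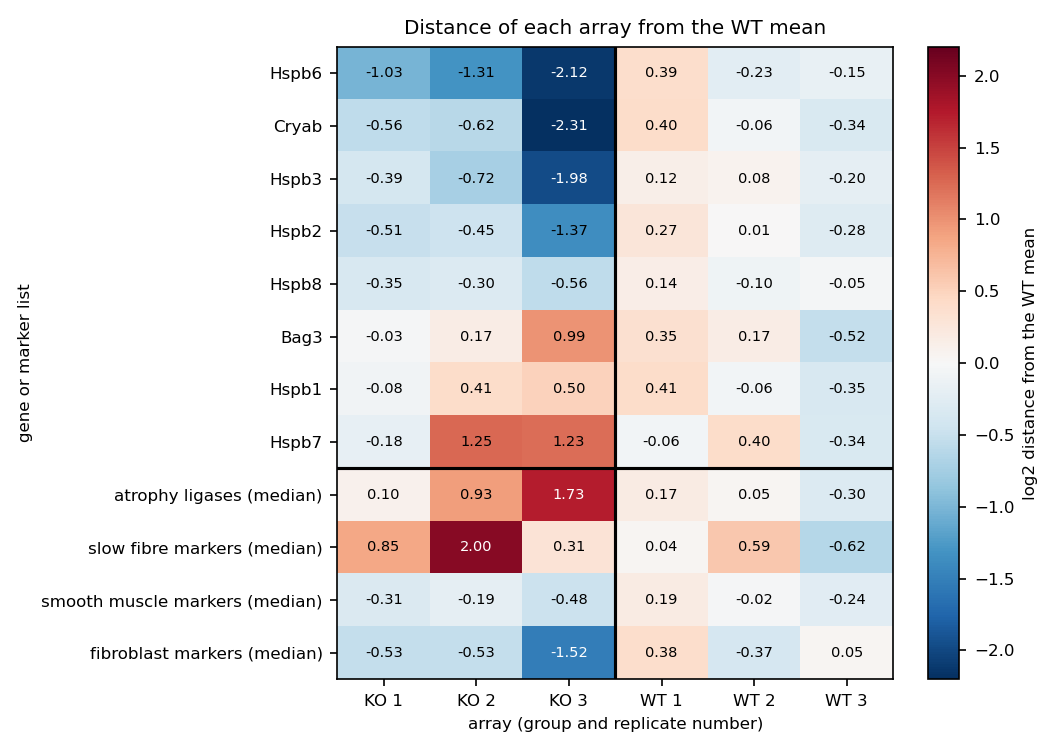
Log2 distance of each array from the WT mean (colour and printed value) for the brightest probe set of each member, above the line, and for the median of 4 gene lists, below it; columns are the KO and WT arrays by replicate. KO replicate 3 is lowest for Cryab (-2.31), Hspb6 (-2.12), Hspb3 (-1.98) and Hspb2 (-1.37), and Hspb7 is high in KO replicates 2 (1.25) and 3 (1.23) and not in KO replicate 1 (-0.18).

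Hspb8 and Bag3 form the pair that starts chaperone-assisted selective autophagy. At their brightest probe sets Hspb8 was lower and Bag3 higher on average, and neither passed limma's test. Hspb8 encodes HSP22, which BAG3 binds through short proline-containing motifs. Its probe set 1417013_at read 539.1, 557.3 and 463.8 in the KO arrays and 764.6, 645.9 and 668.2 in the WT arrays. The groups did not overlap and the arrays of each group were close together, with a log2 fold change of -0.40 and an interval of -0.73 to -0.08 (adjusted p = 0.559, n = 3 each). Probe set 1417014_at read 261.8, 267.9 and 286.1 in the KO arrays and 328.8, 357.8 and 304 in the WT arrays. Its groups did not overlap either, and its log2 fold change was -0.26. Probe set 1456434_x_at, of a type that can also bind related transcripts, read 75.1, 156.2 and 85.1 in the KO arrays and 211.5, 58.2 and 101.3 in the WT arrays, which overlapped. When the arrays were scaled to their hybridization controls, the log2 fold changes of these 3 probe sets were -0.08, 0.05 and 0.19 in the same order, so the small Hspb8 difference turned on the scaling.

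Bag3 joins small heat shock proteins to HSP70 and is itself a target of heat shock factor 1. Its probe set 1422452_at read 151, 176.4 and 323.7 in the KO arrays and 201.9, 175.7 and 103.5 in the WT arrays. KO replicate 3 was the highest array and the other 5 were mixed, with a log2 fold change of 0.38 and an interval of -0.41 to 1.17 (adjusted p = 0.807, n = 3 each). Leaving out replicate 3 of KO gave 0.07 and of WT 0.12, leaving out KO replicate 1 gave 0.58, and hybridization control scaling gave 0.68. Hspb1 encodes HSP25, the mouse form of HSP27, which stabilises actin filaments under stress. Probe set 1422943_a_at read 967.2, 1361.5 and 1455.4 in the KO arrays and 1362.3, 983.4 and 795.8 in the WT arrays. The groups overlapped, with KO replicate 1 below WT replicates 1 and 2 and WT replicate 1 above KO replicate 2. The log2 fold change was 0.28 with an interval of -0.30 to 0.86 (adjusted p = 0.806, n = 3 each). Leaving out replicate 3 of KO gave 0.17 and of WT 0.10, leaving out replicate 1 of KO gave 0.46 and of WT 0.48, and hybridization control scaling gave 0.60. Probe set 1425964_x_at, also of the type that can bind related transcripts, read 662.5, 924.8 and 1166.3 in the KO arrays and 904.6, 642.7 and 513.8 in the WT arrays. Its log2 fold change was 0.41. That fold change was 0.22 or 0.23 when replicate 3 of KO or of WT was left out, 0.62 when replicate 1 of either was, and 0.73 with that scaling. Hspb1 and Bag3 were the second most like pair of members, with a root-mean-square difference of 0.25.

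**Figure D3:**
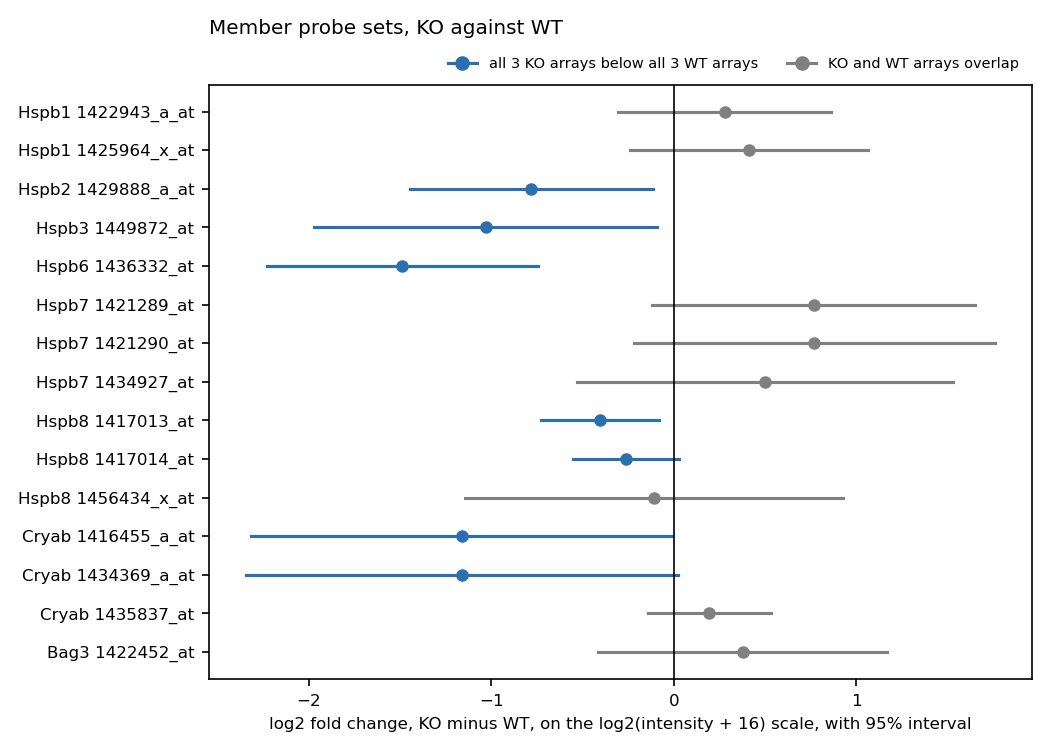
Log2 fold change of KO minus WT (horizontal axis, on the log2(intensity + 16) scale) for the 15 member probe sets, with limma's 95% interval as a line; blue marks probe sets whose KO arrays all lie below the WT arrays. Hspb6 lies farthest from 0 at -1.49, both bright Cryab probe sets stand at -1.16, and all 3 Hspb7 probe sets stand above 0.

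The KO arrays varied more than the WT arrays for 11 of the 15 member probe sets, of which 1425964_x_at of Hspb1 differed only in the third decimal (SD 0.403 in KO and 0.402 in WT), against 53.6% of all probe sets above the median level. The median SD on the log2 scale over the 15 was 0.54 in KO and 0.37 in WT, against 0.27 in KO and 0.26 in WT over all probe sets above the median level. For Cryab at 1416455_a_at the SD was 0.997 in KO and 0.37 in WT, and for Hspb3 it was 0.84 in KO and 0.18 in WT. Hspb8 at 1417013_at was steady, with an SD of 0.14 in KO and 0.13 in WT.

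The wider gene lists around the family were centred near 0. Beside chaperones and cochaperones they hold heat shock factors and regulators, selective autophagy genes and 19 Z-disc and desmin genes, so not all are chaperones. Of 103 listed symbols outside the family, 95 were measured, and 48 were higher and 47 lower on average, with a median log2 fold change of 0.00. Over the 8 members, at their brightest probe sets, the median was -0.59. None of the 95 passed limma's test, over all probe sets or over the brighter ones, although 10 passed the test of brighter ones without KO replicate 1, which called 6% of all probe sets, and Myoz2 passed it without KO replicate 3, which called 1.39%. At an unadjusted p under 0.05 there were 4 higher and 5 lower, against 3.54% and 6.29% of all genes. In 6 the KO arrays lay wholly above the WT arrays and in 8 wholly below, against 4.51% and 8.34% of all genes.

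Among the partners of the family, the stress-inducible HSP70 gene Hspa1a read 36, 24.3 and 25.6 in the KO arrays and 14.8, 18.1 and 6.7 in the WT arrays, a dim signal without overlap (log2 fold change 0.62, adjusted p = 0.537). Hsph1, an HSP70 nucleotide exchange factor, read 77.3, 44.6 and 53.9 in the KO arrays and 133.1, 94.4 and 79.1 in the WT arrays. Those groups also did not overlap, and its log2 fold change was -0.66. Hspd1, the mitochondrial chaperonin HSP60, was lower on average, at 557 ± 48.5 in KO and 798 ± 156.9 in WT (SD, n = 3 each). Of 14 J-domain proteins 9 were higher and 5 lower on average, with 0 passing. In the list named heat shock factors and regulators 4 genes were measured, without Hsf1, the gene of heat shock factor 1. All 4 were higher on average and 0 passed, with log2 fold changes of 0.305 for Hsf2, 0.15 for Hsf4, 0.13 for Hsbp1 and 0.03 for Hspbap1. Hsf2 read 18, 29.2 and 33.3 in the KO arrays and 18, 16.5 and 20.4 in the WT arrays. Among the other BAG genes, Bag5 read 33.1, 42.1 and 83.9 in the KO arrays and 29.1, 36.3 and 23.1 in the WT arrays, and Bag2, an inhibitor of CHIP, was lower on average with a log2 fold change of -0.27. Of the other small heat shock proteins, Hspb9, Cryaa and Odf1 were dim in all 6 arrays, with no value over 13.5. Hspb11, listed with them for its symbol only, read 28.2 to 45.1 in the KO arrays and 24.7 to 42.4 in the WT arrays.

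Genes that act after BAG3 in selective autophagy went both ways. Sqstm1, the p62 receptor that links ubiquitin to the autophagosome, read 1174.8, 1724.9 and 3794.9 in the KO arrays and 898.7, 832.5 and 621.4 in the WT arrays. Map1lc3b, the LC3 protein of the autophagosome membrane, read 642.9, 1367.6 and 2518.2 in the KO arrays and 603.7, 566 and 447.9 in the WT arrays. For both genes every KO array was above every WT array, with log2 fold changes of 1.33 and 1.26 (adjusted p = 0.535 and 0.564, n = 3 each). Synpo2l, a relative of synaptopodin 2, which tethers the complex to the autophagosome, read 566.6, 509.6 and 88.4 in the KO arrays and 935.2, 748.2 and 590 in the WT arrays. Of the 16 measured genes of this list 7 were higher and 9 lower on average, and 0 passed.

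Z-disc and desmin genes, whose proteins the family protects, were also mixed, with 10 of 19 higher and 9 lower on average and 0 passing. Synm, synemin, a partner of desmin, read 628.5, 299.3 and 235.6 in the KO arrays and 932, 876.5 and 693.8 in the WT arrays. Myoz3, a fast fibre calsarcin, read 148.9, 88.9 and 31.2 in the KO arrays and 216.3, 220.4 and 179.6 in the WT arrays. Both lay wholly below the WT arrays, with log2 fold changes of -1.19 and -1.24 (adjusted p = 0.529 and 0.562, n = 3 each). Myoz2, the slow fibre calsarcin, read 640.2, 1523.8 and 684.1 in the KO arrays and 397.5, 538.3 and 266 in the WT arrays, wholly above, with a log2 fold change of 1.15 (adjusted p = 0.56).

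**Figure D4:**
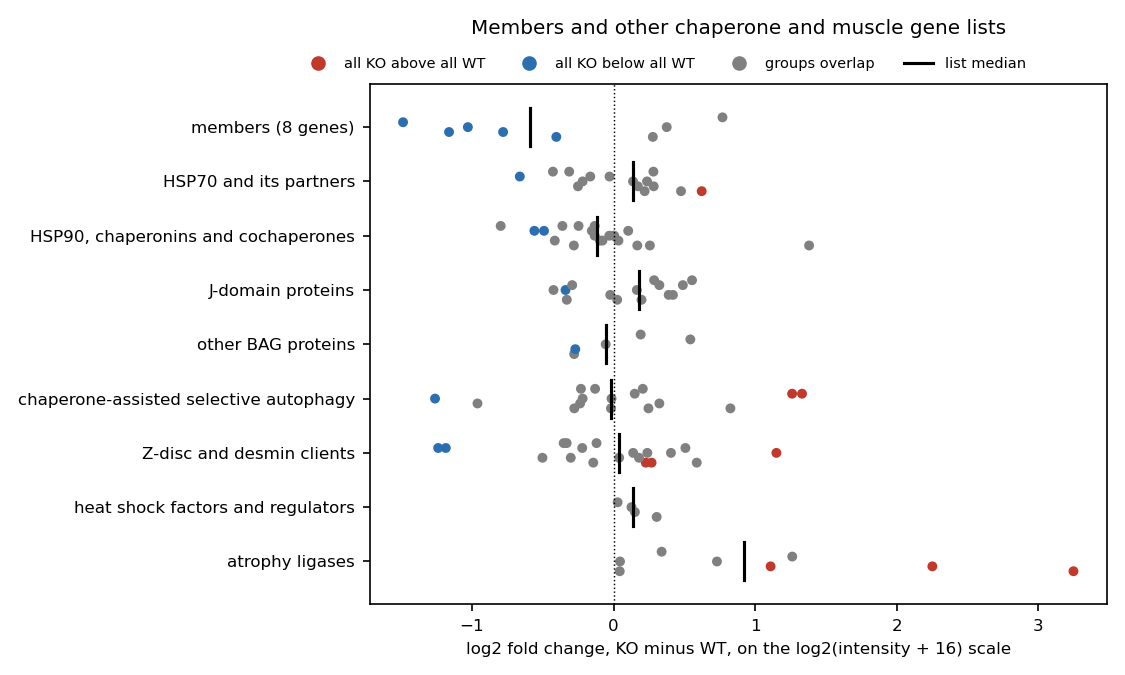
Log2 fold change of KO minus WT (horizontal axis, on the log2(intensity + 16) scale) for each gene of the family and of 8 other lists, at 1 probe set a gene; red and blue mark genes whose KO arrays lie wholly above or below the WT arrays, and a bar marks the list's median. The median of the 8 members stands at -0.59, that of the HSP70 list at 0.14 and that of the atrophy ligases at 0.92.

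The genes of most like profile differed between members. For Hspb7 they were Txnip, an inhibitor of thioredoxin and of glucose uptake, at a root-mean-square difference of 0.14, then Csnk1e, a casein kinase of the clock, at 0.18 and Ppp1r1a, an inhibitor of protein phosphatase 1, at 0.19. Txnip read 798, 1886.3 and 2105.6 in the KO arrays and 932, 980.4 and 755.3 in the WT arrays, with KO replicate 1 again among the WT arrays. For Cryab they were Shisa2, Sel1l3 and Hacd1, a muscle enzyme of very long chain fatty acid synthesis, at 0.10, 0.11 and 0.15. Hacd1 read 1332.5, 997.5 and 283.7 in the KO arrays and 2229.2, 1704.2 and 1512.2 in the WT arrays, with KO replicate 3 far below the rest as for Cryab. For Hspb2 the closest was Ptprs at 0.07, for Hspb8 Tceal9 at 0.06, for Hspb1 Sdf4 at 0.05 and for Bag3 Ankrd11 at 0.07. No member was among the 3 closest genes of another member.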

How the data were processed

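The deposited values are linear intensities, 1 for each probe set in each array. RNA extraction used TriPure and labelling followed the Affymetrix standard protocol with biotin, per the labels' protocols. The software, scaling and background correction behind the authors' deposited intensities are not stated in the sources used here. After 64 manufacturer's controls were left out, intensities were transformed to log2(value + 16) and not normalized further, so folds of dim probe sets are understated. KO was compared with WT over all 45037 probe sets with limma 3.58.1 in R 4.3.3 (lmFit and eBayes, two-sided, Benjamini-Hochberg, threshold 0.05). The fit was tested on simulated data. A first version, with each probe set's own variance as the noise, recovered too few of the changes put in and failed its check. The noise was then changed to limma's moderated variances, so the simulation is no independent check of the fit. The number of arrays limits the precision.

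Genes were named from the platform annotation (34945 probe sets with 1 symbol, 932 with several, 9160 not listed), and a gene was represented by its brightest probe set. The genes named were all member probe sets, the 4 genes at most with the smallest p in each list, and for each member the 3 genes of most like profile with a mean of at least 100. The ratios between members and the mention of Myh11 and of single adipocyte and smooth muscle markers were chosen after the values were seen. The members and lists were chosen with earlier results of these data known. Alternatives were quantile normalization, median centring, offsets of 1 and 64, limma's trend and robust options, each array left out, a block for the replicate number, and a test of only probe sets whose mean log2 value was above that of the median probe set (the filter). The filter was first run on the mean of linear values and changed to log2 values after its results were seen; both are given. Scaling to hybridization controls, the linear filter as an alternative and the filter combined with other settings were added after seeing the data. There were 0 unused columns.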

Additional observations from a re-analysis of the deposited data

How the results depend on the processing

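Each of the 15 member probe sets, 14 under the filter, which 1435837_at of Cryab did not pass, kept its direction under quantile normalization, median centring, the filter, the trend and robust options, the block, both offsets, each array left out and scaling to 18 hybridization control probe sets, apart from 4 cases in Hspb8: 1417014_at at 0.046 with that scaling, and 1456434_x_at at 0.19 with that scaling and, with each array left out, between -0.49 and 0.32, above 0 without KO replicate 1 (0.07) or WT replicate 1 (0.32). That scaling put the median log2 fold change of all probe sets at 0.10, against -0.01 without it, and left 3 member probe sets wholly below WT, those of Hspb6 and the 2 bright ones of Cryab, and 1 of Hspb1 wholly above, against 2.8% and 12.1% of all probe sets. Quantile normalization left 6 below and median centring 7.

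The count of member probe sets past the threshold was 0 over all probe sets in each setting, also at an adjusted p of 0.10. It was 1, Hspb6, in the filtered test (adjusted p = 0.04), 1, again Hspb6, when the filter used the mean of linear values (adjusted p = 0.0409), and 1 in the filtered test with a trended and robust variance or with the replicate block. It was 0 in the filtered test with quantile normalization, median centring or an offset of 1 or 64. With each array left out of the filtered test it ran from 0 to 7. The 7, without KO replicate 1, were Hspb3, Hspb6, 2 of Cryab and 3 of Hspb7, in a setting that called 6% of all probe sets. The cause was not tested.

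Over all probe sets 4 were called, 9 with quantile normalization, 11 with median centring, 15 with a trended and robust variance, 79 of 22518 with the filter, 77 of 22515 with the filter on linear values, 3 with an offset of 1, 1 with an offset of 64, 2 with hybridization control scaling and 0 with the replicate block. With each array left out the count ran from 1 to 6. The cause was not tested. The median of the 8 genes lay between -0.70 and -0.27. Same-numbered arrays had nearly uncorrelated deviations from their group means (correlations of -0.01, 0.02 and -0.04). With 3 arrays a group this cannot decide whether the replicate numbers pair samples. The 3' to 5' ratio of Actb was 0.733, 0.883 and 0.77 in KO replicates 1, 2 and 3 and 0.711, 0.86 and 0.802 in the WT ones. That of Gapdh was 0.846, 0.843 and 0.811 in KO and 0.827, 0.835 and 0.83 in WT. The block gave a lowest member adjusted p of 0.591 over all probe sets.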
